A study of Mus musculus with 15 samples.

Results

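The 9 membrane adenylyl cyclases, Adcy1 to Adcy9, were followed in RNA of backlabeled cutaneous neurons from mouse dorsal root ganglia. They are 9 of 54108 gene symbols in the table, found by exact symbol. The family was chosen from these same data, because Adcy1 and Adcy2 moved in opposite directions after spinal cord injury (SCI). The values of SCI against naïve and of SCI against sham mice that led to this choice are therefore given as a description, without a test.

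All 15 mice were female C57BL/6J, 8 to 12 weeks old, and all received fluorescent wheat germ agglutinin in the hairy skin of both hindpaws before any surgery. The 5 naïve mice had no operation and shared cages. The 5 sham mice had a laminectomy only and the 5 SCI mice a clip compression of the cord at T10, and both kinds were caged singly, so that a comparison with naïve mice is also one of housing. Ganglia L2 to L6 were taken 4 days after surgery, and sorting of about 3000 labeled cells from each mouse gave 1 library of polyadenylated RNA.

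Adenylyl cyclases make cyclic AMP (cAMP) from ATP. All membrane forms are switched on by the stimulatory G protein subunit, and they differ in what else tunes them. Adcy1, Adcy3 and Adcy8 respond to Ca2+ through calmodulin, Adcy2, Adcy4 and Adcy7 are stimulated further by Gβγ, Adcy5 and Adcy6 are inhibited by Ca2+ and by the inhibitory G protein Gi, and Adcy9 is hardly sensitive to the plant compound forskolin. In nociceptors cAMP acts through protein kinase A and the exchange factor Epac, and inflammatory mediators such as prostaglandin E2 use this route to lower the threshold of firing.

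The isoforms share their catalytic core but differ enough in sequence for short reads to tell them apart. Coding stretches over the metal-binding motif of the first catalytic domain are shown for the pair on which the family was chosen, for the pair most alike there and for Adcy8, whose stretch has the fewest bases in common with that of Adcy2. They are 45 bases long, run 5′ to 3′ on the coding strand and come from GENCODE M21 (GRCm38). Capitals mark the 21 bases of the motif:
Adcy1: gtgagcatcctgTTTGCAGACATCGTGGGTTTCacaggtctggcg
Adcy2: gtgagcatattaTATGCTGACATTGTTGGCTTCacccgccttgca
Adcy5: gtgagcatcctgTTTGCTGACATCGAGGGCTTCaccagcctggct
Adcy6: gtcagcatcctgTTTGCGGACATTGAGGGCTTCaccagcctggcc
Adcy8: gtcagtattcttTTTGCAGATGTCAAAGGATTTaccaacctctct

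Adcy1 and Adcy2 had the same base at 32 of the 45 positions, Adcy5 and Adcy6 at 41, and Adcy2 and Adcy8 at 25. Each stretch spans an exon junction. That of Adcy1 is joined from chr11:7100684-7100688 and chr11:7109001-7109040 (plus strand), and that of Adcy2 from chr13:68738548-68738552 and chr13:68734696-68734735 (minus strand). The Adcy5 stretch comes from chr16:35253258-35253262 and chr16:35267180-35267219 (plus strand), the Adcy6 stretch from chr15:98600395-98600399 and chr15:98600250-98600289 (minus strand), and the Adcy8 stretch from chr15:64822192-64822196 and chr15:64815379-64815418 (minus strand). Over all annotated transcripts, no run of 75 bases, the read length, was shared between 2 cyclases or with another gene on the same strand. On the opposite strand 16.8% of the runs of Adcy3 were shared with Cenpo, 6.64% of those of Adcy6 with Gm29331 and 2.80% of those of Adcy2 with Gm35161. The library kit keeps strand, but whether the counting used it is not given in the sources used here, so these 3 genes may hold reads of their antisense partners.

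The measurement behind each gene is the authors' normalised value, which is the gene's read number times 1 constant per library. It is not divided by gene length and is called normalised reads here. The naïve libraries held 1321632 to 7465583 reads, the sham libraries 2568656 to 7389487 and the SCI libraries 3000636 to 4385542. The shallowest were naïve 1 and naïve 4. Nociceptor markers were abundant in every library, with a summed level over 7 genes of 1889.8 to 4015 normalised reads in naïve mice, 1761 to 2749.9 in sham mice and 2172 to 2640.2 in SCI mice. Markers of the cells that wrap neurons were present too: the 8 satellite glia genes summed to 1329.7 to 3090.1 in naïve mice, 1409 to 2106 in sham mice and 1718 to 2109 in SCI mice. The 5 Schwann cell genes summed to 961 to 2165, 947 to 1439.98 and 1249.5 to 1429 in the same order. The nociceptor and glial sums fell as depth rose, with Pearson's r of -0.98 for nociceptors, -0.94 for satellite glia and -0.97 for Schwann cells against log2 reads over the 15 libraries. Of the 3 erythrocyte genes none had reads in every library. In such bulk RNA fewer cells of a type and less RNA per cell cannot be told apart.

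Levels of the isoforms, compared per kilobase of exon, spanned a wide range. Adcy2 was highest, with 32.0 ± 3.04 normalised reads per kb (SD, n = 15), followed by Adcy5 with 29.9 ± 3.27 and Adcy6 with 18.8 ± 3.71. These 3 genes made up 29.3%, 27.5% and 17.2% of the family's reads per kb. Adcy9 (8.03 ± 1.51), Adcy3 (7.64 ± 1.42) and Adcy7 (7.11 ± 2.74) formed a middle tier, Adcy1 lay below it at 4.90 ± 1.61, and Adcy8 (0.934 ± 0.328) and Adcy4 (0.178 ± 0.131) were scarce. Neighbours in this order were often not separate: Adcy2 was above Adcy5 in 12 of 15 libraries, Adcy9 above Adcy3 in 11 and Adcy3 above Adcy7 in 9. Adcy5 over Adcy6, Adcy6 over Adcy9, Adcy1 over Adcy8 and Adcy8 over Adcy4 held in all 15, and Adcy7 over Adcy1 in 14. Adcy2 exceeded Adcy5 in 3 of 5 naïve, 4 of 5 sham and 5 of 5 SCI libraries. In naïve mice the mean of Adcy5, at 29.4 per kb, was above that of Adcy2, at 28.6. This order rests on division by the merged exons of each gene, which are 12522 bases for Adcy1. Undivided, the means over 15 libraries were 215 normalised reads for Adcy5, 135 for Adcy2 and 128 for Adcy6. Adcy1 then had 61.3, above Adcy7 (47.9), Adcy3 (47.7) and Adcy9 (41.7). Shares per kb depend on the same division.

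**Figure D1:**
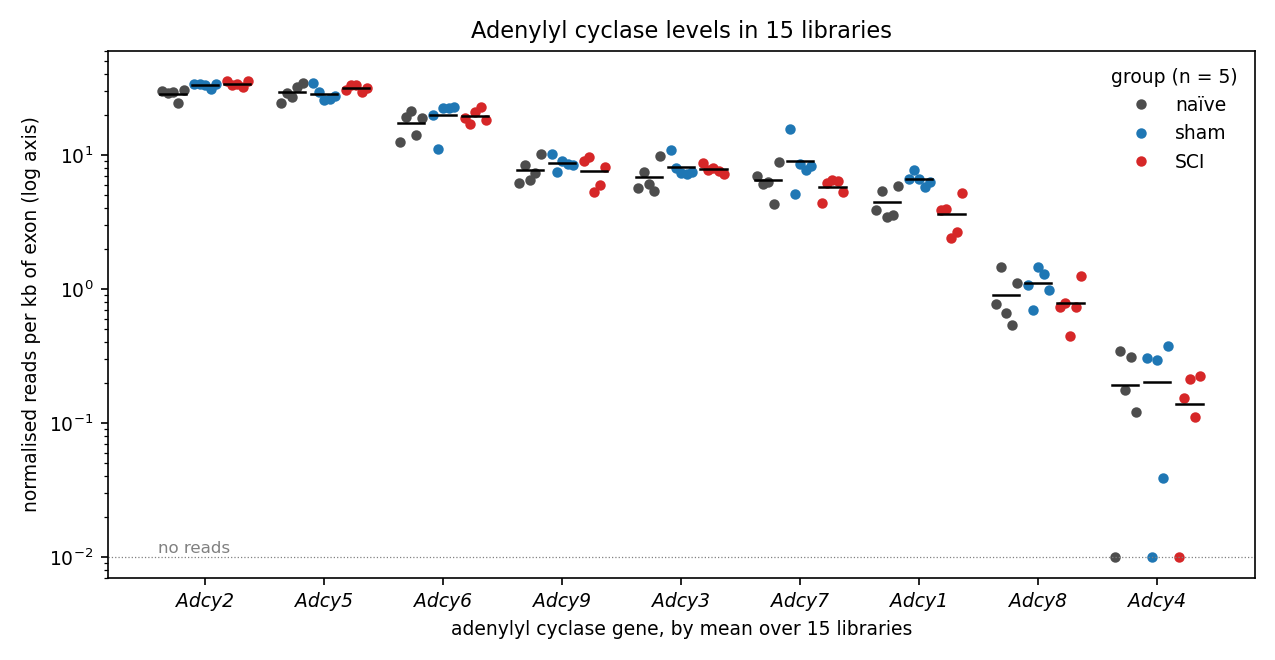
Normalised reads per kb of exon (log axis) of the 9 adenylyl cyclases in each library, by group, with the genes ordered by their mean. Points are libraries (n = 5 per group), black bars are group means, and libraries without a read are drawn on the dotted line. Adcy2 and Adcy5 are highest at 32.0 and 29.9, and Adcy4 is lowest at 0.178.

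Adcy1, a Ca2+/calmodulin-stimulated cyclase of neurons that in mice is known for its part in synaptic plasticity (chr11:7063489-7178506, plus strand), was lowest in SCI mice. It had 49.0, 67.1, 43.4, 44.6 and 73.7 normalised reads in naïve 1 to 5. Sham mice had 83.1, 97.2, 83.4, 72.8 and 78.7, and SCI mice 48.6, 49.4, 30.0, 33.6 and 65.6. All 5 SCI libraries lay below all 5 sham libraries, while SCI and naïve libraries overlapped, as did sham and naïve libraries through naïve 5. The log2 difference was -0.90 (SE 0.19) between SCI and sham and -0.31 (SE 0.19) between SCI and naïve mice. Of all 16000 genes tested, 1.26% had every SCI library below every sham library and 0.256% had every SCI library above. Since Adcy1 was picked on this contrast, nothing is read from its place among them. Its libraries rested on 61 to 585 reads. The SD between mice was 2.82 times the counting error (the Poisson SD of the reads) among naïve, 2.06 times among sham and 3.89 times among SCI mice.

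Adcy2 (chr13:68620043-68999541, minus strand) is a Gβγ-stimulated cyclase and had the highest mean per kb over the 15 libraries. It was higher in both operated groups than in naïve mice. Naïve 1 to 5 had 126, 122, 124, 102 and 129 normalised reads. Sham mice had 142, 144, 141, 131 and 142, and SCI mice 150.5, 139.8, 143, 136 and 150.4. Every SCI and every sham library lay above every naïve library, and SCI and sham libraries overlapped. The log2 difference was 0.26 (SE 0.07) between SCI and naïve and 0.04 (SE 0.07) between SCI and sham mice. Every SCI library exceeded every naïve library in 0.325% of all genes tested and was below in 0.137%. This separation depended on the authors' scaling. With the recovered reads rescaled by median-ratio size factors, naïve mice had 400.3 to 498 rescaled reads of Adcy2, sham mice 418 to 524 and SCI mice 447 to 525, so that all groups overlapped, and the SCI difference from naïve mice was 0.19. Under the same rescaling Adcy1 still had 105 to 229 rescaled reads in SCI against 232 to 353 in sham libraries. Endothelial and mural markers moved with Adcy2: all 5 testable ones were higher in SCI than naïve libraries (median 0.54) and in sham than naïve libraries (median 0.39), and all 6 correlated positively with it (r 0.16 to 0.70, n = 15 libraries of differing depth). Their summed level was 209 to 296 normalised reads in naïve mice, 245 to 301 in sham mice and 271 to 339.6 in SCI mice, and Cdh5, an endothelial cadherin with the highest r, had only 0.410 ± 0.409 normalised reads in naïve, 2.27 ± 2.70 in sham and 1.91 ± 1.35 in SCI libraries (SD, n = 5 each). The part of these cells in the Adcy2 values was not tested. The spread of Adcy2 was close to the counting error, at 1.38 times it among naïve, 0.938 times among sham and 1.01 times among SCI mice.

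The ratio of Adcy1 to Adcy2 within a library needs no scaling between libraries. It was 0.390, 0.552, 0.351, 0.436 and 0.573 in naïve 1 to 5. In sham 1 to 5 it was 0.583, 0.675, 0.594, 0.557 and 0.556, and in SCI 1 to 5 it was 0.323, 0.353, 0.209, 0.248 and 0.436. SCI and sham libraries did not overlap in the ratio, and both overlapped with naïve libraries. The pair was chosen for its opposite moves, and Adcy1 alone already separated SCI from sham libraries, so nothing is read from this gap. The means were 0.460 ± 0.0983 (SD, n = 5), 0.593 ± 0.0487 (SD, n = 5) and 0.314 ± 0.0894 (SD, n = 5). Over the 15 libraries Adcy1 and Adcy2 did not mirror each other, with a Pearson's r of 0.21 between their log2 values, which share library and depth.

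**Figure D2:**
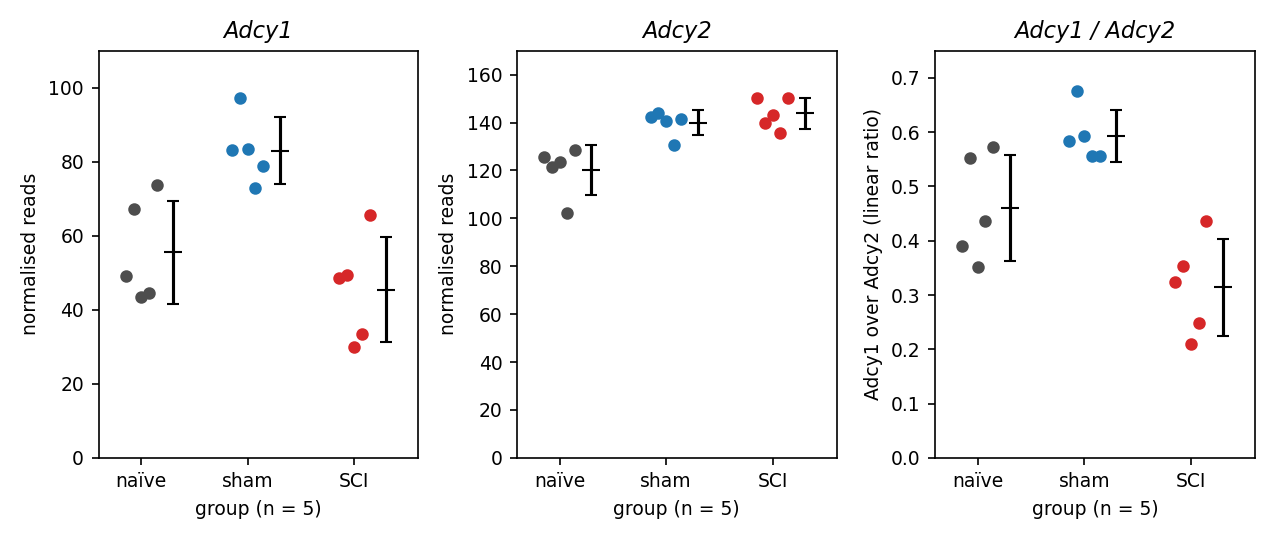
Normalised reads of Adcy1 and Adcy2 and their linear ratio in each library, by group (n = 5). Points are libraries and the bars beside them are means ± SD. Adcy1 reaches 65.6 in SCI libraries and starts at 72.8 in sham libraries, and Adcy2 reaches 129 in naïve libraries and starts at 131 in operated ones.

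The other Ca2+/calmodulin-stimulated forms showed smaller differences. Adcy3, which makes cAMP in olfactory cilia, had 35.6, 47.0, 38.0, 33.6 and 61.2 normalised reads in naïve 1 to 5. Sham mice had 68.0, 49.6, 45.9, 45.5 and 46.5, and SCI mice 54.0, 48.4, 49.8, 47.8 and 45.0. The groups overlapped, and the SCI libraries were the tightest, with a CV of 6.73% against 26.3% in naïve mice. Adcy8, the other form with a known place in synaptic plasticity in mice, had only 6 to 64 reads per library. Naïve mice had 6.33, 12.003, 5.38, 4.39 and 8.998 normalised reads, sham mice 8.81, 5.69, 11.97, 10.5 and 8.07 and SCI mice 5.94, 6.44, 3.62, 5.94 and 10.1. These overlapped in all comparisons, with a log2 difference of -0.45 (SE 0.28) between SCI and sham mice.

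Among the Gβγ-stimulated forms, Adcy7, known from blood and immune cells, was the most variable of the 8 testable isoforms in sham mice, with a CV of 42.8%. Naïve mice had 46.7, 41.2, 42.2, 29.2 and 59.5 normalised reads, sham mice 105, 34.6, 58.1, 52.2 and 56.1 and SCI mice 29.7, 41.5, 43.8, 43.1 and 35.6. Sham 1 was the highest and sham 2 overlapped with SCI mice, and the SD between sham mice was 7.58 times the counting error. The log2 difference between SCI and sham mice was -0.57 (SE 0.23), -0.35 without sham 1 and -0.75 without sham 2. The 6 macrophage markers summed to 38.5, 8.13, 42.6, 56.0 and 24.2 normalised reads in sham 1 to 5, so that sham 3 and sham 4 exceeded sham 1, and to 12.7 to 41.9 in naïve and 9.05 to 61.8 in SCI libraries. All 6 correlated positively with Adcy7 (r 0.10 to 0.46, n = 15 libraries of differing depth). All 6 did so with Adcy6 too (r 0.08 to 0.38), so this was not particular to Adcy7. The single marker with the highest r with Adcy7 was Lum of the fibroblast list (0.49). The part of macrophages or fibroblasts in the Adcy7 values was not tested. Adcy4, the third of the class, had 52 reads in all libraries together and none in 3 of them (naïve 1, sham 2 and SCI 1), and its mean of 0.831 was under the minimum of 1 for testing. In naïve 1, the shallowest library, the upper limit that a count of 0 allows (3 reads, counting error only) is 2.37 normalised reads, so no difference in Adcy4 was detectable there.

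Adcy5 and Adcy6, the closely related Ca2+- and Gi-inhibited pair, were both abundant. Adcy5, the main cyclase of the striatum, had 176, 207, 195, 233 and 246 normalised reads in naïve 1 to 5. Sham mice had 249, 213, 184, 188 and 197, and SCI mice 220.3, 238, 240.2, 213 and 226. The groups overlapped, with means of 211 ± 28.3, 206 ± 26.1 and 228 ± 11.5 (SD, n = 5 each). Adcy6, a main form of the heart, had 85.4, 131, 143, 95.0 and 129 normalised reads in naïve 1 to 5. Sham mice had 134.5, 75.6, 152, 153 and 154, and SCI mice 128, 116, 141, 154 and 123. The groups overlapped, and the low values were those of naïve 1 and naïve 4, the shallowest naïve libraries, and of sham 2, the shallowest sham library. Pearson's r of Adcy6 with log2 reads was 0.68 over the 15 libraries. Adcy9, which is hardly activated by forskolin, had 32.4, 43.8, 33.9, 38.0 and 52.9 normalised reads in naïve 1 to 5. Sham mice had 53.0, 38.6, 46.7, 44.6 and 44.0, and SCI mice 46.7, 50.1, 27.7, 31.3 and 42.2. All groups overlapped, and SCI 3 and SCI 4 were the lowest libraries.

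Between SCI and naïve mice 4 of the 8 testable isoforms were higher and 4 lower, with a median log2 difference of 0.04 beside 0.08 over all genes. Between SCI and sham mice 3 were higher and 5 lower, with a median of -0.13 beside -0.07 over all genes, and 4 were higher and 4 lower with median-ratio rescaling. Adcy2 was the 1 isoform of 8 with all SCI above all naïve libraries, and Adcy1 the 1 isoform of 8 with all SCI below all sham libraries. Both comparisons share the SCI mice and were part of the choice of the family. Limma called 0% of all genes in each (0 of 16000), with 724 genes at an unadjusted p under 0.05 for SCI against naïve and 623 for SCI against sham mice. On the recovered reads edgeR called 0 genes in both and DESeq2 called 0 and 4.

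**Figure D3:**
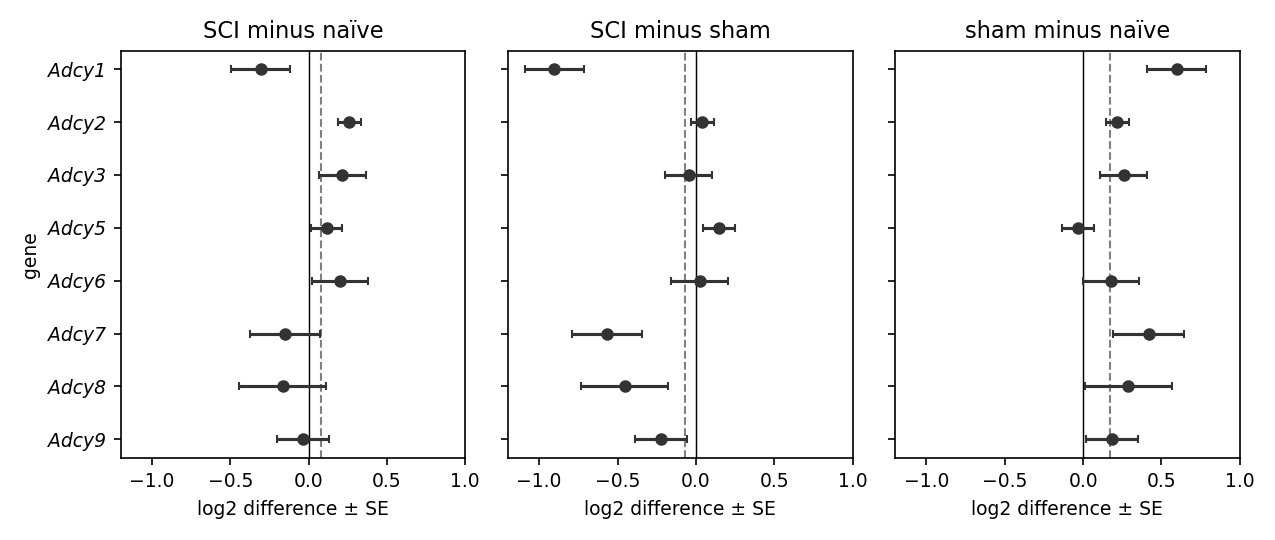
Log2 differences of the 8 testable adenylyl cyclases in the 3 comparisons, on the scale of log2(normalised reads + 1). Points are differences, bars are ± SE from limma over 15 libraries, and the dashed line is the median of all 16000 genes (0.08, -0.07 and 0.17). Adcy1 is lowest in SCI minus sham at -0.90 and highest in sham minus naïve at 0.60.

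The comparison of sham with naïve mice asked how operated, singly caged mice without cord injury differed from unoperated ones. It did not itself pick the members, but it uses the sham and naïve values of the comparisons that did. Its tests of Adcy1 and Adcy2 are therefore not independent of that choice. No isoform passed the test. On the log2 scale sham exceeded naïve mice by 0.60 (SE 0.19, adjusted p = 0.300, limma) for Adcy1, higher in 4 of 5 sham mice than in any naïve mouse, and 0.22 (SE 0.07, adjusted p = 0.300, limma) for Adcy2, higher in 5 of 5. For Adcy7 it was 0.42 (SE 0.23, adjusted p = 0.321, limma), and the remaining 5 ranged from -0.03 for Adcy5 to 0.29 for Adcy8. Of the 8 isoforms 7 were higher and 1 lower in sham mice, but the median of all genes was itself 0.17 above zero under the authors' scaling, 0.05 with median-ratio rescaling and 0.00 with quantile normalization. Relative to all genes the difference of Adcy1 was 0.42 and that of Adcy2 0.04. Sham lay wholly above naïve libraries in 0.588% and wholly below in 0.0562% of genes. Limma called 0 of 16000 genes, with 2651 at an unadjusted p under 0.05, and edgeR and DESeq2 on recovered reads called 0 as well.

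One library decided the last result. Without naïve 5, which has the most reads of all libraries, limma called 1752 of 16000 genes between sham and naïve mice. Among them were 2 of the 8 isoforms, Adcy1 (0.71, adjusted p = 0.0339) and Adcy2 (0.24, adjusted p = 0.0479). These are the pair on which the family was chosen, partly through the same sham and naïve values, so nothing is read from their calls. With log2 reads per library as a covariate 0 genes were called, the differences of Adcy1 and Adcy2 were 0.46 and 0.18, and 5 of 8 isoforms were lower in sham mice. The depth of the libraries differed with the groups, with a median of 2532675 reads in naïve and 5815348 in sham mice, and over the 15 libraries r with log2 reads was 0.80 for Adcy3, 0.67 for Adcy7, 0.64 for Adcy9, 0.53 for Adcy8, 0.48 for Adcy2, 0.43 for Adcy1 and 0.24 for Adcy5.

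By regulatory class, the Ca2+- and Gi-inhibited pair held the largest share of cyclase reads per kb, at 45.8% ± 3.57 for naïve, 41.9% ± 1.94 for sham and 46.1% ± 2.35 for SCI mice (SD, n = 5 each). The Gβγ-stimulated class held 34.8% ± 3.61, 36.7% ± 1.03 and 36.0% ± 0.582 in the same order. The Ca2+/calmodulin-stimulated class held 11.9% ± 1.81, 13.8% ± 1.21 and 11.02% ± 1.04, with all 5 SCI libraries (9.72% to 12.1%) below all 5 sham libraries (12.7% to 15.8%). Adcy1, on which the family was chosen, is part of that class and accounted for 5.79% ± 0.980 of the family in sham and 3.26% ± 0.985 in SCI mice. The share of Adcy3 was 7.05% ± 0.817 in sham and 7.06% ± 0.480 in SCI mice. Adcy9 held 7.55% ± 0.835, 7.54% ± 0.296 and 6.84% ± 1.62.

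**Figure D4:**
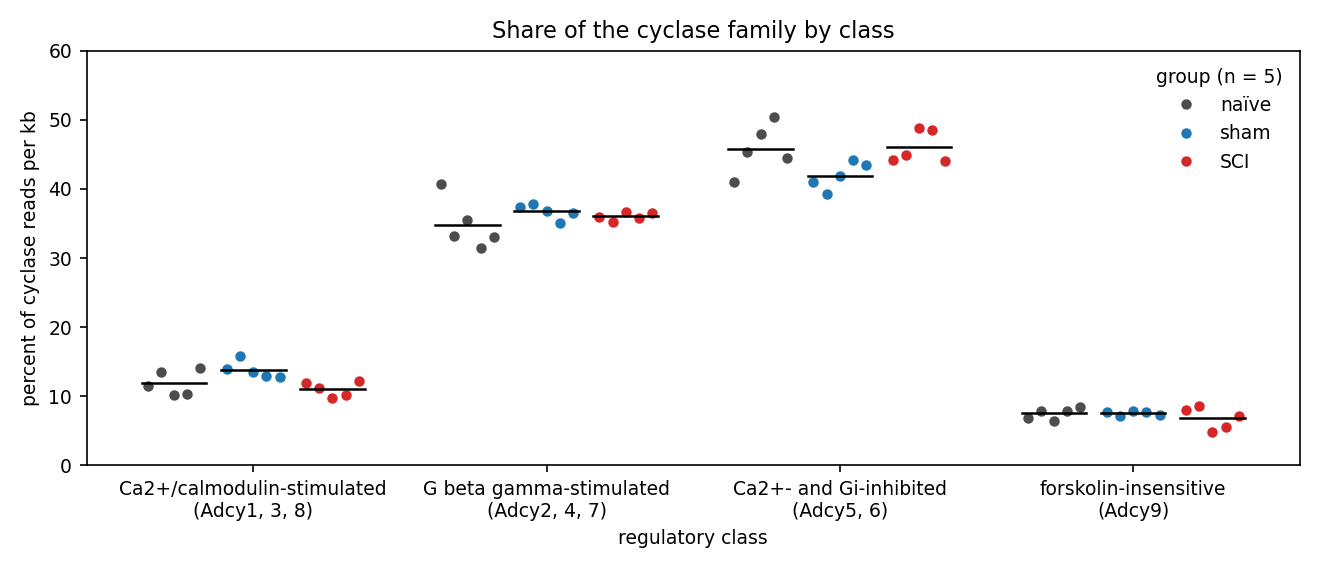
Share of the adenylyl cyclase reads per kb held by each regulatory class in each library, in percent, by group (n = 5). Points are libraries and bars are group means. The Ca2+- and Gi-inhibited pair holds 41.9% to 46.1% by group mean, and the Ca2+/calmodulin-stimulated class 11.02% to 13.8%.

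Genes were ranked by their r with Adcy1, so a high r of those at the top follows from the ranking itself. The 5 genes with values most like Adcy1 over the 15 libraries were Chn2 (r = 0.93), Ppm1e (0.93), Clstn2 (0.90), Fat3 (0.90) and Kirrel3 (0.90). Chn2 encodes a GTPase-activating protein for Rac, Ppm1e a protein phosphatase of Ca2+/calmodulin kinases, and Clstn2, Fat3 and Kirrel3 are cell-surface adhesion proteins. After each group's mean was subtracted the closest were Krt222 (0.94), Fam91a1 (0.91), Ppm1e (0.90), Chn2 (0.90) and Clstn2 (0.89). Naïve mice had 89.1 ± 15.9 normalised reads of Ppm1e, sham mice 107 ± 8.78 and SCI mice 76.5 ± 22.6 (SD, n = 5 each). Ntrk3, the neurotrophin receptor of large myelinated neurons and the marker with the highest r with Adcy1 (0.81), was singled out after its values were seen. It had 236, 164, 109.7, 98.4 and 198 normalised reads in SCI 1 to 5, with its lowest values in SCI 3 and SCI 4, as for Adcy1 and Adcy9. In sham mice it had 191 to 232 and in naïve mice 113 to 232. Its r was 0.86 with Adcy9, while that of Adcy2 was 0.43. The list of 4 large myelinated markers summed to 337 to 564 in naïve mice, 409 to 596 in sham mice and 363 to 695 in SCI mice, with r = 0.41 for Adcy1. The other 3 markers followed Adcy1 less, with r of 0.39 for Pvalb, 0.05 for Nefh and -0.15 for Spp1. Between SCI and sham mice Ntrk3 had a log2 difference of -0.45 (SE 0.22) and Pvalb -0.04 (SE 0.82). Nefh and Spp1 went the other way, with 0.39 (SE 0.22) and 0.26 (SE 0.53). The part of these neurons in the Adcy1 values was not tested.

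The genes most like Adcy2 were Dnajc10 (0.87), Tesc (0.86), 1110032A03Rik (0.85), Amacr (0.85) and Bbip1 (0.85). With group means subtracted they were Tmem169 (0.88), Cdh4 (0.88), Naa25 (0.87), Arhgef37 (0.84) and Egfl7 (0.84). Dnajc10 encodes a disulphide reductase of the endoplasmic reticulum and had 109.5 ± 9.85 normalised reads in naïve mice, 119 ± 4.61 in sham mice and 123 ± 3.87 in SCI mice (SD, n = 5 each). No gene appeared in the lists of both Adcy1 and Adcy2. The genes of both lists were picked for their high r, and all these values share their library and its depth. Against log2 reads r was 0.33 to 0.63 for the first 5 genes of Adcy1 and 0.39 to 0.64 for those of Adcy2.

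Upstream and downstream of the cyclases, 81 genes of the cAMP pathway were looked up, all 81 were in the table and 75 could be tested. None passed in any comparison (0 of 75 in each direction, limma), with 4 at an unadjusted p under 0.05 for SCI against naïve, 3 for SCI against sham and 21 for sham against naïve mice. edgeR and DESeq2 called none of them either. Of all 16000 genes, 4.5%, 3.9% and 16.6% were at an unadjusted p under 0.05 (limma) in the same order. Without naïve 5, limma called 5 of the 75 higher and 11 lower in sham than naïve libraries, beside 1212 higher and 540 lower of all 16000 genes. With values beyond 50% of their group's mean left out it called 2 of 73 higher (Pde3a and Pde7a) and 3 lower (Prkar1b among them), beside 530 higher and 112 lower of 15260 genes. Pde3a and Pde7a are named after their values were seen. Adcy10, the soluble bicarbonate-sensitive cyclase, was near absent at 0.830 ± 0.632, 0.753 ± 0.355 and 0.364 ± 0.508 normalised reads in naïve, sham and SCI mice (SD, n = 5 each).

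The G protein subunits that drive the cyclases were abundant. Gnal, the olfactory-type stimulatory subunit, had 463 ± 88.9 normalised reads in naïve mice, 361 ± 51.7 in sham mice and 417 ± 32.1 in SCI mice (SD, n = 5 each), and Gnas, the common stimulatory subunit, 68.5 ± 17.5, 58.4 ± 8.37 and 62.4 ± 7.75. The sham difference from naïve mice was -0.35 (SE 0.12, adjusted p = 0.300, limma) for Gnal. Of the 5 inhibitory subunits 3 had a negative difference there, among them Gnao1 (-0.43, SE 0.16) and Gnai2 (-0.37, SE 0.15), while Gnai1 had 0.20 (SE 0.08). The calmodulin kinases Camk2a and Camk2d had differences of -0.35 (SE 0.12) and 0.02 (SE 0.08). Camk2a was the 1 of 75 testable pathway genes with all sham below all naïve libraries, beside 0.0562% of all 16000 genes.

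Among 15 testable receptors that couple to the stimulatory G protein, Ptgir, the prostacyclin receptor, had the most normalised reads, undivided by gene length. Ptgir had 111 ± 24.0, 118 ± 15.3 and 120 ± 12.9 in naïve, sham and SCI mice (SD, n = 5 each). Ptger4, a prostaglandin E2 receptor, had 28.1 ± 6.85, 33.8 ± 7.18 and 34.3 ± 6.09. Calcrl, the receptor subunit for calcitonin gene-related peptide, had 9.77 ± 4.66, 10.6 ± 3.66 and 16.2 ± 2.33, a difference of 0.79 (SE 0.32, adjusted p = 0.898, limma) between SCI and naïve mice. Ptger2, another prostaglandin E2 receptor, was scarce, with 124 reads in all, and had 1.13 ± 1.66, 2.59 ± 0.341 and 1.42 ± 0.636. Its difference between sham and naïve mice was 1.04 (SE 0.37, adjusted p = 0.300, limma), and 1.41 (adjusted p = 0.0276) without naïve 5. Of the 15 receptors 14 were higher in sham than naïve libraries (median 0.29), 12 with median-ratio rescaling and 10 with reads as a covariate. All genes had a median of 0.17 under the authors' scaling. Above the all-gene median lay 11, 11 and 10 of the 15 receptors in the same order.

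The phosphodiesterases, which break cAMP down, and protein kinase A, which it activates, had medians of opposite sign between sham and naïve mice, and no gene of either list passed. All 16 phosphodiesterases were higher in sham mice, with a median of 0.38 beside 0.17 over all genes, and 11 of 16 lay above that median. Pde8b had 65.7 ± 14.3, 85.6 ± 8.42 and 83.8 ± 7.62 normalised reads in naïve, sham and SCI mice (SD, n = 5 each), with 0.39 (SE 0.12, adjusted p = 0.300, limma) for sham, and Pde3b had 0.42 (SE 0.17). Pde1c and Pde11a, the 2 of the list with the most normalised reads, had 0.15 and 0.04. The list of 9 protein kinase A genes holds its subunits and the inhibitor peptides Pkia, Pkib and Pkig. Of these 9 kinase genes 7 were lower in sham mice, with a median of -0.18, and 0 of 9 lay above the median of all genes. The subunits were all lower, while Pkia, Pkib and Pkig had -0.03, 0.005 and 0.07. The regulatory subunit Prkar2b had 182 ± 22.3, 147 ± 11.6 and 153 ± 6.95 normalised reads and a difference of -0.30 (SE 0.09, adjusted p = 0.300, limma). Prkar1a, Prkar1b and the catalytic Prkaca had -0.39, -0.46 and -0.29. With median-ratio rescaling 13 of 16 phosphodiesterases were higher and 9 of 9 kinase genes lower, and without naïve 1 and naïve 4 the counts were 12 of 16 and 7 of 9. Relative to the all-gene median, 11 of 16 phosphodiesterases lay above it with this rescaling, but only 8 of 16 without these 2 libraries. Of the kinase genes 9 of 9 and 8 of 9 lay below it. With reads as a covariate 8 phosphodiesterases were higher and 8 lower, and 4 kinase genes were higher and 5 lower. Between SCI and sham mice 14 of 16 phosphodiesterases were lower (median -0.18), and 10 of the 16 lay below the all-gene median of -0.07. All 9 kinase genes, the inhibitors included, were higher (median 0.15). With median-ratio rescaling 10 of 16 were lower and 9 of 9 higher. With reads as a covariate 7 phosphodiesterases were lower and 9 higher, and 7 kinase genes were higher and 2 lower. Pkib was the 1 of 75 testable pathway genes with all SCI above all sham libraries, beside 0.256% of all 16000 genes.

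No gene of the remaining lists passed either. Epac is encoded by Rapgef3 and Rapgef4, of which Rapgef4 had more normalised reads, undivided by gene length. Rapgef4 had 103 ± 22.2, 111 ± 19.3 and 115 ± 17.1 in naïve, sham and SCI mice (SD, n = 5 each). Of 9 anchoring proteins that tether protein kinase A, Akap7 had 36.3 ± 5.14, 45.2 ± 3.53 and 35.0 ± 5.38, a difference of -0.37 (SE 0.12, adjusted p = 0.897, limma) between SCI and sham mice, and Akap12 had -0.41 (SE 0.15) between sham and naïve mice. Akap6 had the second most normalised reads of the anchors, undivided by gene length, with 421 ± 37.2, 419 ± 47.5 and 447 ± 69.6. The cAMP-responsive factor Crem had 13.0 ± 3.22, 18.0 ± 3.47 and 17.9 ± 3.10, with a difference of 0.45 (SE 0.19) between SCI and naïve and 0.44 (SE 0.19) between sham and naïve mice. Atf1, Crtc1 and Crtc2 of the same list had 0.33, 0.07 and 0.10 between sham and naïve mice. The Popeye proteins, which bind cAMP at the membrane, had 0.11 for Bves and 0.15 for Popdc3.

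**Figure D5:**
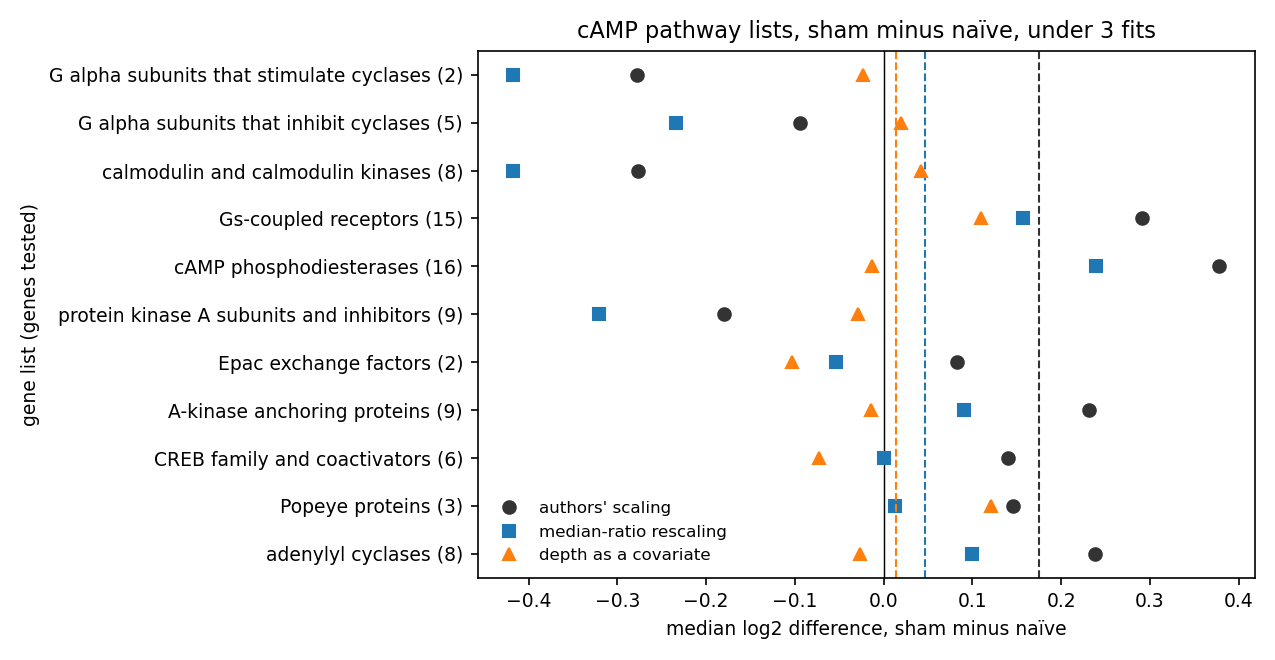
Median log2 difference between sham and naïve mice of each cAMP pathway list and of the adenylyl cyclases, under the authors' scaling (circles), median-ratio rescaling (squares) and with log2 reads as a covariate (triangles). Dashed lines are the medians of all genes in the same 3 fits. The phosphodiesterases go from 0.38 to -0.01 and the cyclases from 0.24 to -0.03 once reads are a covariate.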

How the data were processed

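RNA was measured in 15 libraries, 1 per mouse and 5 per group. The authors aligned single-end reads of 75 nt with HISAT2 and counted them with HTSeq, per the submitters' processing notes, where versions and annotation are not given in the sources used here. The deposited signal values carry the name RPKM, but 100% of them were whole reads times 1 constant per library (tolerance 1e-06), and these reads were recovered. Of 54232 lines, 27 named no gene (at most 0.21% of reads) and 97 repeated a symbol. Columns of group means and of the authors' own comparisons were not used.

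After addition of a pseudocount of 1 the values were log2-transformed, and the 16000 genes whose mean reached 1 were fitted with limma 3.58.1 (R 4.3.3), 1 mean per group, with p-values adjusted by Benjamini-Hochberg at 0.05. A fold on this scale understates changes of low genes. edgeR 4.0.16 and DESeq2 1.42.0 were run on recovered reads. Replicates are separate mice. The scripts were tested on simulated data. Levels per kb used the merged exons of GENCODE M21. Correlations are Pearson's r on log2 values. Counting error is the Poisson SD of the reads and covers counting only.

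The members, gene lists and tests were chosen with earlier results of these data known. Pathway genes are named by rule: per list the 2 with the highest mean and the 2 with the smallest p in any comparison, and for Adcy1 and Adcy2 the 5 genes of highest r whose mean reached 10, before and after group means were subtracted. Pkib and Ntrk3 were singled out after their values were seen, and Pkia, Pkig, Nefh, Pvalb and Spp1 were added to complete their sets. Some genes that this rule names are not reported here.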

Additional observations from a re-analysis of the deposited data

Results flagged for a closer look

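Of 27 groups of 5 libraries (9 isoforms in 3 groups), 4 held a library far from the other 4, where about 5% would by chance. Adcy2 was low in naïve 4, at 102 normalised reads against 122 to 129 in the other naïve mice, and in sham 4, at 131 against 141 to 144. Naïve 4 had 1431111 reads, the second fewest of all libraries. Its fibroblast markers summed to 1748 normalised reads, against 334 to 412 in the other naïve mice, and their part in the value was not tested. Adcy3 was high in sham 1, at 68.0 against 45.5 to 49.6. Adcy6 was low in sham 2, at 75.6 against 134.5 to 154, and sham 2 was the shallowest sham library with 2568656 reads. In sham 1 Adcy7 was also the highest of all libraries, at 105.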

How the results depend on the processing

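Single libraries left out in turn gave 0 genes called in both SCI comparisons and 0 to 1752 between sham and naïve mice, the most without naïve 5. Leaving out values beyond 50% of their group's mean gave 44 genes for SCI against naïve, 98 for SCI against sham and 642 for sham against naïve mice, a step that lowers the spread by its construction. DESeq2 called 4 genes between SCI and sham mice (Skor2, Spry4, Scn3a and Steap2, named after their values were seen). Between sham and naïve mice it gave an adjusted p for 2662 genes only. The differences of Adcy1 and Adcy2 kept their sign under all 29 alternatives in each comparison. They ranged from -1.05 to -0.77 for Adcy1 between SCI and sham and from 0.19 to 0.28 for Adcy2 between SCI and naïve mice, and Adcy2 between sham and naïve mice fell to 0.08 with median-ratio rescaling. Several alternatives cannot move a difference: the gene filters, the replicate block and a library left out of the third group. The pair was also chosen for its signs, so nothing is read from this count.

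Other isoforms changed sign between sham and naïve mice. With reads as a covariate the differences were -0.014 for Adcy3, -0.14 for Adcy6, -0.038 for Adcy8 and -0.064 for Adcy9. With naïve 1 and naïve 4 left out as well, a choice made after seeing the data, they were -0.021, -0.16, -0.055 and -0.046. Without these 2 libraries and with no covariate Adcy6 had -0.052, and single libraries left out gave up to 0.37. Quantile normalization gave 0.024 for Adcy5 and -0.035 for Adcy8, and single libraries left out gave -0.10 to 0.024 for Adcy5. In the SCI comparisons small differences changed sign too: Adcy3 against sham under 7 of 29 alternatives (-0.082 to 0.093), Adcy6 against sham under 3 (-0.17 to 0.19), Adcy9 against naïve under 4 (-0.16 to 0.082), and Adcy6 and Adcy8 against naïve under 1 each. The median-ratio check of group overlap and the list counts under other scalings were also added after seeing the data. The cause of these shifts was not tested.

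The replicate number as a block gave 0 genes called in each comparison. Each group holds every replicate number once, so the block could not change a difference (-0.90 for Adcy1 between SCI and sham mice). Same-numbered libraries did not deviate together (r -0.35 to 0.34), so no pairing by number was seen. Such a check cannot exclude one. Depth limits Adcy4 and Adcy8 most, with 0 to 10 and 6 to 64 reads per library.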
